A study of Mus musculus with 16 samples.

Results

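The genes of fatty acid uptake, storage and oxidation were followed in the quadriceps muscle of mice that had run and mice that had not. The set held 36 genes chosen by name, and all 36 had an entry among the 18872 with values in the deposited table. They filled 35 entries, because Acot1 and Acot2 share a single entry with Acot3 and Acot5, and the muscle carnitine palmitoyltransferase Cpt1b shares its entry with the overlapping genes Chkb and BC090627. All 35 entries had a mean of at least 1 FPKM (fragments scaled to the length of the transcript and the size of the library), as did 10519 of all entries. The 16 male mice, 13 to 15 weeks old, formed 4 groups of 4, exercised VV, sedentary VV, exercised MM (WT) and sedentary MM (WT). VV mice are homozygous for a germline knock-in of Camk2g, so that CaMKIIγ carries valines in place of the methionine pair that can be oxidized, and MM mice are their wild-type littermates. Exercised mice had run 350 m on an inclined treadmill, less than VV mice can run on average, and their muscle was taken after 3 h of rest. The labels describe acclimation to the treadmill and the withdrawal of food on the morning of collection for the mice as a whole, and do not give them separately for sedentary mice. Whole muscle was homogenized, so that fewer cells of a type and less RNA per cell cannot be told apart. Mice are named by the numbers in their titles, such as 2246-4.

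Fatty acids reach muscle fibres from circulating triglyceride, which lipoprotein lipase splits at the capillary wall, and from droplets inside the fibre. They are bound to coenzyme A, carried into mitochondria by the carnitine shuttle and shortened in the β-oxidation spiral, and the electrons pass through the electron transfer flavoprotein (ETF) to the respiratory chain. Muscle relies on this route during long, moderate work and fasting, and the nuclear receptors PPARα and PPARδ drive many of its genes.

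The muscle identity of the samples was plain in the data, with 10 fast fibre and muscle markers summing to between 106954 and 139937 FPKM in the 16 mice. White adipocyte markers, 9 genes led by Fabp4, were detected in every mouse (sum 550.2 to 1436 FPKM). The sum is mostly Fabp4, at a mean of 593 FPKM, against 89.4 FPKM for Cfd, the next highest. Relative depth, estimated from the steps between the values of low genes, ranged from 1 to 1.23 times that of the shallowest mouse. Across all tested entries the median log2 difference between exercised and sedentary mice was -0.08 in VV and -0.05 in MM, so small negative values were the rule for genes at large.

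Fatty acid genes were among the more abundant of the muscle, with a median level over the entries of 92.5 FPKM, against 7.12 FPKM over all tested entries. In uptake, the fatty acid binding protein Fabp3 stood highest at a mean of 934 FPKM, followed by lipoprotein lipase Lpl at 271 FPKM and the fatty acid translocase Cd36 at 148 FPKM. The long-chain acyl-CoA synthetase Acsl1, which activates the fatty acid, had 131 FPKM, and Angptl4, a secreted inhibitor of lipoprotein lipase, 7.49 FPKM. In the carnitine shuttle the joined Cpt1b entry had 148 FPKM, the acetyl transferase Crat 124 FPKM, the inner membrane translocase Slc25a20 65.9 FPKM, the inner membrane transferase Cpt2 36.2 FPKM and the plasma membrane carnitine transporter Slc22a5 5.75 FPKM. The β-oxidation genes ranged from the short-chain dehydrogenase Acads at 32.3 FPKM to the trifunctional protein subunit Hadhb at 272 FPKM. Of the electron transfer genes, Etfb had 172 FPKM, Etfa 156 FPKM and the ETF dehydrogenase Etfdh 92.5 FPKM. The pair that sets malonyl-CoA, the brake on Cpt1b, was of similar abundance, with 59.2 FPKM for the carboxylase Acacb and 41.4 FPKM for the decarboxylase Mlycd.

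The droplet and lipolysis genes were led by the triglyceride lipase Pnpla2 (ATGL) at 96.6 FPKM, while the droplet coats Plin2 and Plin5 had 19.8 and 11.4 FPKM and the hormone-sensitive lipase Lipe 12.5 FPKM. Ucp3, the mitochondrial carrier typical of skeletal muscle, averaged 147 FPKM, and its relative Ucp2 10.1 FPKM. Both receptors were low, Ppara at 6.88 FPKM and Ppard at 6.85 FPKM. The joined Acot1 and Acot2 entry had 16.7 FPKM, and the acyl-CoA thioesterase Acot11 was the least abundant member at 2.22 FPKM. All of these are means over the 16 mice, and FPKM is a scale per transcript length.

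**Figure D1:**
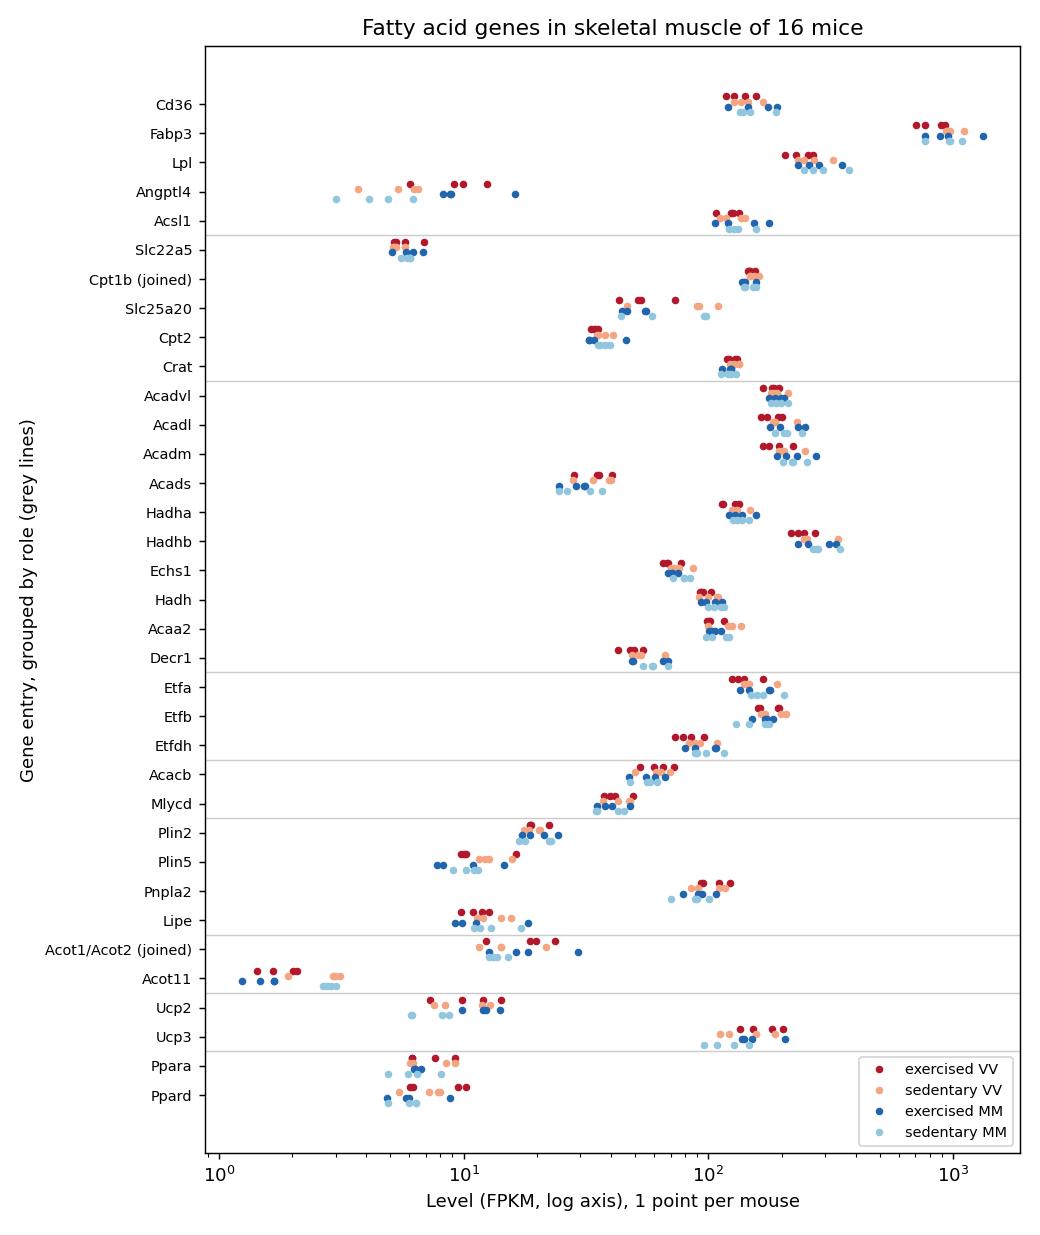
Level in FPKM (horizontal, log axis) of the 35 entries, grouped by role, with 1 point per mouse in exercised VV, sedentary VV, exercised MM and sedentary MM colours. For most genes the 4 colours lie on top of each other, and Angptl4, Acot11 and Slc25a20 show visible gaps.

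Running moved few of these genes. In MM mice 2 of the 35 entries passed the test at an adjusted p under 0.05, against 1.23% of all tested entries (limma with Benjamini-Hochberg adjustment over all 10519). The member that rose was Angptl4, in a direction taken by 1.08% of all entries, and the member that fell was Acot11, in a direction taken by 0.143%. At an unadjusted p under 0.05 stood 4 members in MM, where 10.7% of all entries did. In VV mice 0 of 35 passed, against 0.276% of all entries, with 3 members at an unadjusted p under 0.05 (10.1% of all entries reached it). With the exercise effects of both genotypes averaged, the same pair passed, 2 of 35, against 3.14% of all entries. For that average 1.98% of all entries were called higher and 1.16% lower, a split of 208 to 122 that became 300 to 76 after median-ratio scaling and 272 to 97 after quantile scaling, and turned to 264 to 309 with sample quality weights. No member passed in the test of whether the exercise effects of VV and MM differ, nor did any of all entries (0%), so a call in MM alone does not show a difference between the genotypes. Comparisons of exercise in MM, in VV and over both draw on the same mice, and their values are given side by side.

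**Figure D2:**
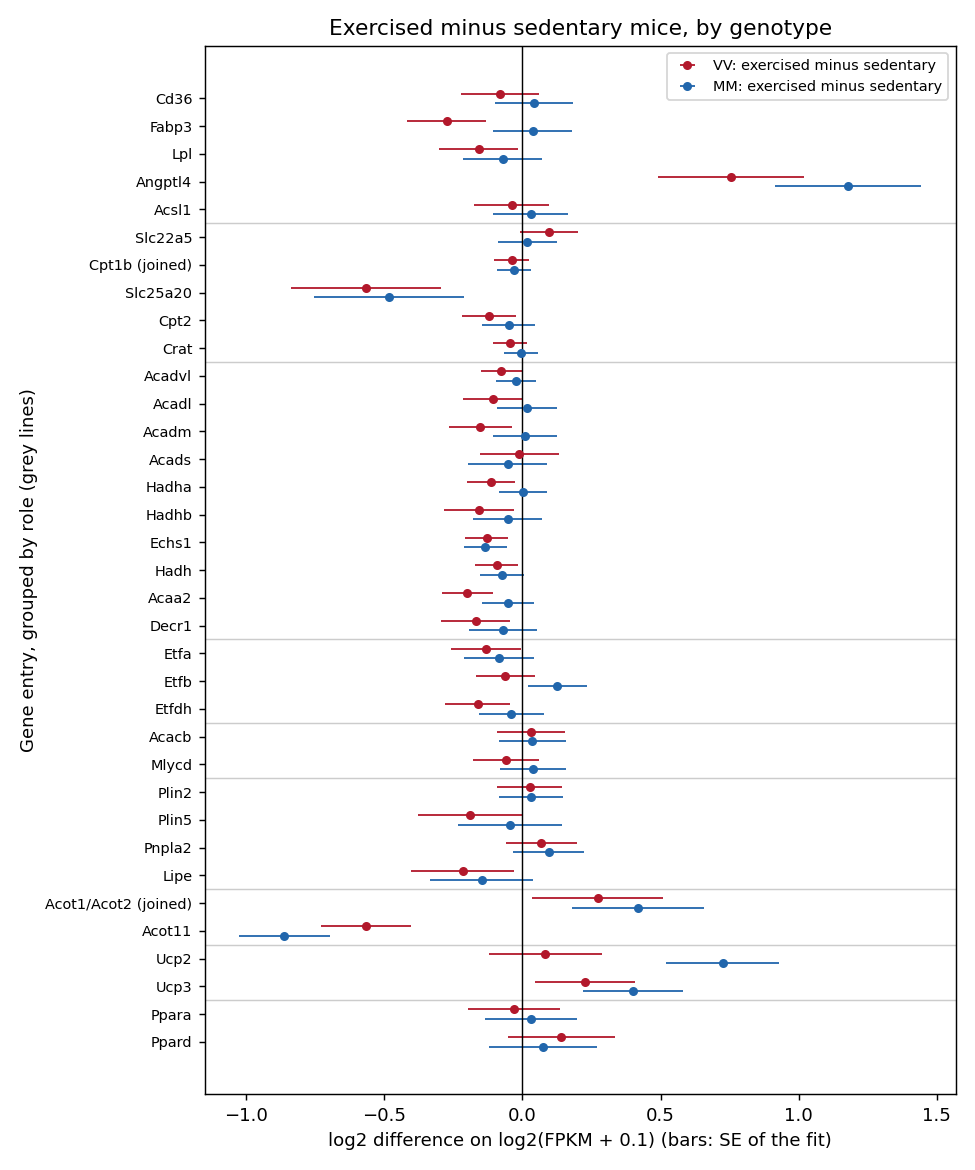
Difference between exercised and sedentary mice on the log2(FPKM + 0.1) scale (horizontal, bars show the SE of the fit) for each of the 35 entries, VV above MM in each row. Angptl4 stands to the right at 0.76 and 1.18, Acot11 and Slc25a20 stand to the left, and the β-oxidation genes lie within 0.21 of 0.

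Acot11, an enzyme that splits long-chain acyl-CoA back into free fatty acid and coenzyme A, was lower after running. In VV it had 1.44, 2.01, 1.67 and 2.09 FPKM in exercised mice, against 2.98, 1.91, 3.13 and 2.93 FPKM in sedentary mice. The sedentary VV mouse 2074-5, at 1.91 FPKM, lay inside the exercised range. In MM it had 1.68, 1.25, 1.68 and 1.48 FPKM in exercised mice, against 3.00, 2.88, 2.76 and 2.68 FPKM in sedentary mice, and these groups did not overlap. The log2 difference was -0.57 (SE 0.16, unadjusted p = 0.00298, adjusted p = 0.235 by limma) in VV and -0.86 (SE 0.16, adjusted p = 0.0110 by limma) in MM. Over both genotypes it was -0.71 (SE 0.12, adjusted p = 0.00180 by limma). The difference between these effects was 0.30 (SE 0.23, unadjusted p = 0.218, limma). With each mouse left out in turn the call in MM was kept throughout (adjusted p 0.00386 to 0.0481 by limma). At about 2 FPKM the gene lies low in the table, and with a minimum of 5 FPKM it is not tested.

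Acot11 lies on the minus strand of chromosome 4, from 106744555 to 106805007 of GRCm38.p6, and RefSeq places its transcription at more than a single start, which the table does not separate. The windows from 250 bases before to 50 bases after both starts in the RefSeq promoter table are shown because the level of this gene was the most firmly changed of the set. They were searched for AGGTCA, the hexamer bound by nuclear receptors such as the PPARs, on both strands, and held none.
Acot11, chr4:106804958-106805257, minus strand: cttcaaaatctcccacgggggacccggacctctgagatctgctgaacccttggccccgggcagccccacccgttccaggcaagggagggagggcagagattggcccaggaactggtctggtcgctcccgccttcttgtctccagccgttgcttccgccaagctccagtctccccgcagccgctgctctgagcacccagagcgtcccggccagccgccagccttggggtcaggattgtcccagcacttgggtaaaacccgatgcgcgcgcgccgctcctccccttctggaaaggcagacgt
Acot11, chr4:106799782-106800081, minus strand: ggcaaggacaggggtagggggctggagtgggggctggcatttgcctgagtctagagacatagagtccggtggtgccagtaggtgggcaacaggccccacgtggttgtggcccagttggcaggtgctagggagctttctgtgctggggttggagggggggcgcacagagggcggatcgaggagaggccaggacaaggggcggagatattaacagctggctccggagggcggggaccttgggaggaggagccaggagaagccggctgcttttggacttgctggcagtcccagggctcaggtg

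Angptl4, which is secreted and inactivates lipoprotein lipase, was higher after running. Its gene lies on chromosome 17 from 33774900 to 33781575 of GRCm38.p6. In VV it had 6.01, 12.5, 9.17 and 9.93 FPKM in exercised mice, against 6.30, 5.39, 3.70 and 6.49 FPKM in sedentary mice. Exercised MM mice had 8.84, 8.20, 16.2 and 8.91 FPKM, against 6.20, 4.90, 3.03 and 4.11 FPKM in sedentary MM mice. The MM groups did not overlap, while in VV the exercised mouse 2161-5 lay below sedentary mice. The log2 difference was 0.76 (SE 0.27, unadjusted p = 0.0116, adjusted p = 0.348 by limma) in VV, 1.18 (SE 0.27, adjusted p = 0.0382 by limma) in MM and 0.97 (SE 0.19, adjusted p = 0.00796 by limma) over both. These effects differed by -0.42 (SE 0.37, unadjusted p = 0.275, limma).

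The call of Angptl4 in MM was near the threshold. It was lost with the title number of the mice as a block (adjusted p = 0.0761), without a filter on low values (0.0604) and when MM mice were fitted without VV mice (0.0623, all by limma). Leaving out single mice gave adjusted p values of 0.0256 to 0.145 by limma, and the call was kept in 5 of 16 omissions, those of the VV mice 2161-5, 2161-7, 2126-4 and 2296-5 and the sedentary MM mouse 2032-3. The smallest difference, 0.95 (adjusted p = 0.0978), came without the exercised MM mouse 2246-4, and the largest adjusted p, 0.145, without the sedentary MM mouse 2127-1. Over both genotypes it was kept under every omission (log2 0.85 to 1.07, adjusted p 0.00439 to 0.0209 by limma). Mouse 2246-4 also had the highest sum of white adipocyte markers, at 1436 FPKM, against 577 to 889.7 FPKM in the other exercised MM mice and 697 to 935 FPKM in sedentary MM mice. Without it, exercised MM mice were at 8.84, 8.20 and 8.91 FPKM of Angptl4, still above each sedentary MM mouse. Of the 9 adipocyte markers, 0 had a log2 difference above 0 after running in VV and 4 in MM, against 26.4% and 37.5% of all entries. The part of fat cells in this result was not tested. Lpl itself, the lipase that Angptl4 restrains, differed by -0.16 (SE 0.14) in VV and -0.07 (SE 0.14) in MM and did not pass.

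Fabp3, Cd36 and Acsl1, which bind, import and activate fatty acids, did not pass in any comparison. Fabp3 had 703, 922, 763 and 894 FPKM in exercised VV, against 1108, 969, 929 and 947 FPKM in sedentary VV mice. In MM it had 769, 881, 1328 and 951 FPKM in exercised mice, against 1080.3, 767, 961 and 970.5 FPKM in sedentary mice. All 4 exercised VV mice thus lay below all 4 sedentary VV mice, the only member with such a separation in VV (4.91% of all tested entries had it), while the MM groups overlapped. The log2 difference was -0.27 (SE 0.14, adjusted p = 0.545 by limma) in VV and 0.04 (SE 0.14) in MM, and the difference of the effects was -0.31 (SE 0.20, unadjusted p = 0.142, limma). In MM the separated members were Angptl4, Acot11 and Ucp2, 3 of 35, where 6.74% of all tested entries were separated. Cd36 differed by -0.08 in VV and 0.04 in MM, and Acsl1 by -0.04 and 0.03 in the same order.

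In the carnitine shuttle 4 of the 5 entries stayed within 0.13 of 0 in both genotypes on the log2 scale. The exception was Slc25a20, which exchanges acylcarnitine for free carnitine across the inner mitochondrial membrane. It had 73.3, 53.2, 43.1 and 51.5 FPKM in exercised VV, against 109, 89.5, 91.7 and 46.6 FPKM in sedentary VV mice. Among MM mice it had 44.2, 46.3, 55.0 and 55.7 FPKM in exercised mice, against 58.7, 97.5, 95.7 and 43.8 FPKM in sedentary mice. The 16 values left a gap between 58.7 and 73.3 FPKM, with 10 mice below and 6 above it. Those above were 5 sedentary mice and the exercised VV mouse 2161-5. The log2 difference was -0.57 (SE 0.27) in VV, -0.48 (SE 0.27) in MM and -0.53 (SE 0.19, unadjusted p = 0.0151, adjusted p = 0.158 by limma) over both. It passed when the sedentary VV mouse 2296-5 was left out (log2 -0.66, adjusted p = 0.0381 by limma) and under no other omission. Slc25a20 was described because of these values and not by the rule for named genes.

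The 2 uncoupling protein genes lie next to each other on chromosome 7, Ucp3 from 100472991 to 100486432 and Ucp2 from 100493337 to 100499629 of GRCm38.p6, both on the plus strand. Ucp2 had 14.2, 12.0, 9.88 and 7.29 FPKM in exercised VV, against 8.43, 12.9, 11.9 and 7.57 FPKM in sedentary VV mice, with full overlap. In MM it had 12.3, 14.1, 9.81 and 12.0 FPKM in exercised mice, against 6.11, 8.68, 6.16 and 8.20 FPKM in sedentary mice, with no overlap. The log2 difference was 0.08 (SE 0.20) in VV and 0.72 (SE 0.20, unadjusted p = 0.00261, adjusted p = 0.124 by limma) in MM. Of all members it had the smallest p in the test of the difference of the effects, -0.64 (SE 0.29, unadjusted p = 0.0408 by limma), which did not pass after adjustment. At that unadjusted level stood 1 of 35 members and 1.85% of all entries.

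Levels of 9 macrophage markers, such as the complement genes C1qa, C1qb and C1qc, are set beside those of Ucp2. They summed to 80.2, 131, 63.3 and 145 FPKM in exercised MM, against 68.9, 52.1, 45.1 and 77.4 FPKM in sedentary MM mice, and to 128, 42.1, 59.1 and 69.4 FPKM in exercised VV, against 66.7, 99.2, 112 and 34.9 FPKM in sedentary VV mice. Both pairs of groups overlapped, and no marker was at 0 in all mice. All 8 of these markers that were tested had a log2 difference above 0 in MM (median 0.81) and 4 of 8 did in VV (median -0.04), against 37.5% and 26.4% of all entries. By limma 0 of 8 were called in either, with 2 in MM and 0 in VV at an unadjusted p under 0.05. At that p stood 10.7% of all entries in MM and 10.1% in VV. For the difference of the effects 0 of 8 lay above 0 (median -0.77), against 37.7% of all entries. There 0 of 8 were called and 0 stood at that unadjusted p, where 1.85% of all entries did. Ucp2 is expressed in macrophages as well as in muscle, and their part in its difference was not tested.

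Ucp3, the muscle relative, had 152, 201, 181 and 134 FPKM in exercised VV, against 121, 187, 112 and 156 FPKM in sedentary VV mice. MM mice had 137, 151, 206 and 139 FPKM in exercised mice, against 128, 147, 95.8 and 108 FPKM in sedentary mice. Both pairs of groups overlapped, and the log2 difference was 0.23 (SE 0.18) in VV and 0.40 (SE 0.18, unadjusted p = 0.0414, adjusted p = 0.436 by limma) in MM. The promoter windows of both genes are shown because the neighbours differ in the AGGTCA hexamer, in capitals. The Ucp3 window held it 2 times on the plus strand, starting 149 and 44 bases before the annotated start, and the Ucp2 window held it on neither strand.
Ucp3, chr7:100472741-100473040, plus strand: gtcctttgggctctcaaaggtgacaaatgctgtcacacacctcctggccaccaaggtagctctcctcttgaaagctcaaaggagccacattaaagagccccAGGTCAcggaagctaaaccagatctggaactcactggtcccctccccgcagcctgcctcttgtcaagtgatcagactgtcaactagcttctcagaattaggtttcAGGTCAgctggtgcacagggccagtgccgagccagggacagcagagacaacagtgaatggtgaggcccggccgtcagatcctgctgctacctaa
Ucp2, chr7:100493108-100493407, plus strand: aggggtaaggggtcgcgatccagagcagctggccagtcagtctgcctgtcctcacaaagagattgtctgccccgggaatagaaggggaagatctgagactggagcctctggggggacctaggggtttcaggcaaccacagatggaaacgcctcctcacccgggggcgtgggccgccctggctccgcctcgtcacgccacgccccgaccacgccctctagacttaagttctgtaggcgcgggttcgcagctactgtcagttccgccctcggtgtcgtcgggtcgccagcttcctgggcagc

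**Figure D3:**
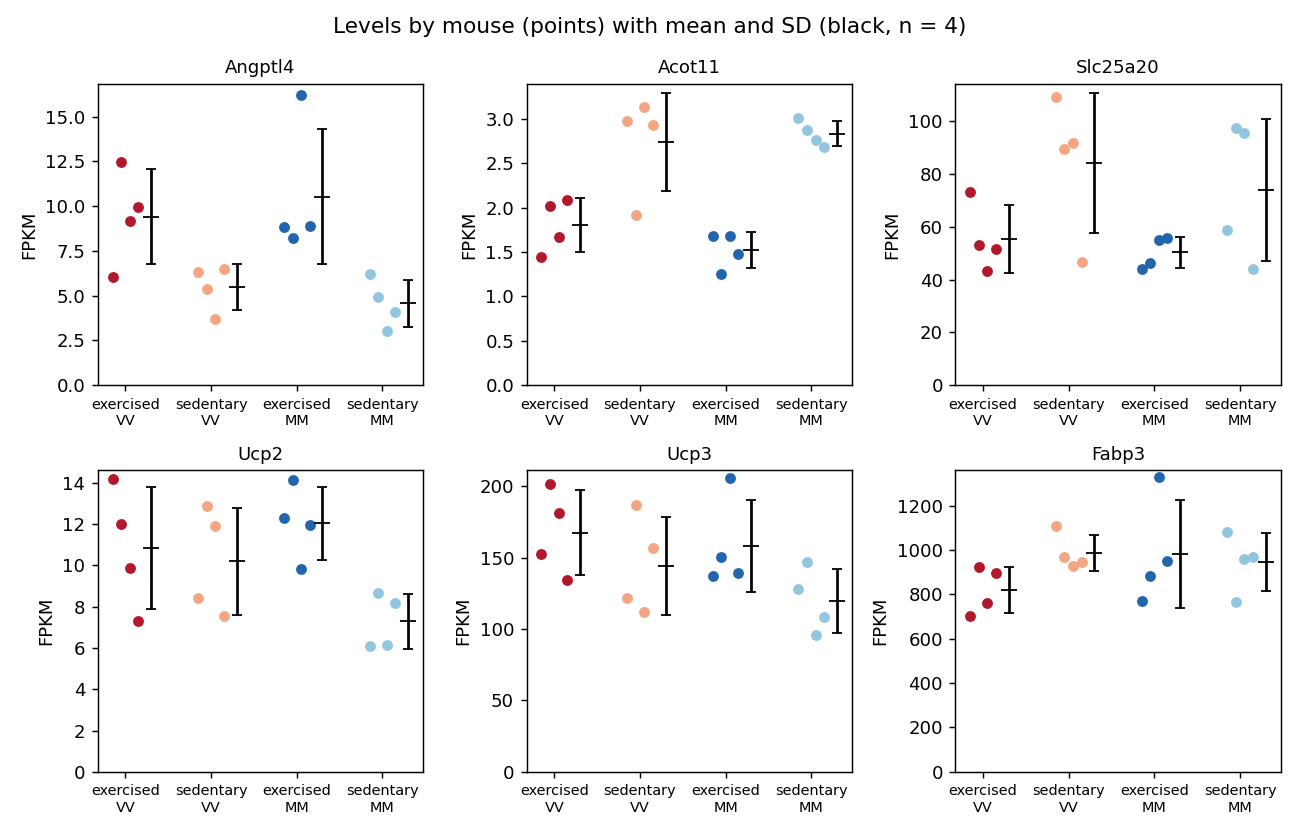
FPKM of Angptl4, Acot11, Slc25a20, Ucp2, Ucp3 and Fabp3 in each mouse (points) with the group mean and SD (black, n = 4), from exercised VV on the left to sedentary MM on the right. Angptl4 is higher and Acot11 lower in exercised mice of both genotypes, Ucp2 is separated in MM alone, and Slc25a20 spreads widely among sedentary mice.

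Over all promoters of the reference, AGGTCA occurred on either strand in 16.3% of 32851 windows of 300 bases. The members had 34 windows for 30 genes, and 9 of these windows (26.5%), from Acacb, Acadm, Acadvl, Cd36, Echs1, Plin2, Plin5 and Ucp3, held it. The longer elements TNAAGGTCA of the estrogen-related receptors (in 1.28% of all windows) and the PPAR response element (0.0396%), that hexamer repeated after a single free base, both of which contain AGGTCA, and TGACGTCA of the cyclic AMP pathway (1.79%) were in 0 of the 34. A match describes letters, and the lack of one says only that these letters are not in the window. Promoters of Lpl, Acaa2, Crat, Angptl4, Cpt1b and Decr1 were not analysed here.

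None of the 10 β-oxidation genes passed the test after running. The acyl-CoA dehydrogenases Acadvl, Acadl, Acadm and Acads, which take the first step for chains of falling length, differed by between -0.15 and -0.01 in VV and between -0.05 and 0.02 in MM, with SE of 0.07 to 0.14. Hadha and Hadhb, the subunits of the mitochondrial trifunctional protein, differed by -0.11 and -0.16 in VV and by less than 0.06 in MM. Of the remaining enzymes, the hydratase Echs1 was slightly lower in exercised mice of both genotypes, at 69.7 ± 5.08 FPKM, against 76.3 ± 7.34 FPKM in sedentary VV mice, and at 71.4 ± 2.67 FPKM, against 78.5 ± 5.28 FPKM in sedentary MM mice (SD, n = 4 each). Over both genotypes that was -0.13 (SE 0.05, unadjusted p = 0.0273, adjusted p = 0.206 by limma), which did not pass. Acaa2, the thiolase of the last step, had 98.3, 116, 102 and 101 FPKM in exercised VV, against 125, 100.0, 136 and 121 FPKM in sedentary VV mice. Those groups overlapped through mouse 2074-5, and the difference of -0.20 (SE 0.09, unadjusted p = 0.0457, adjusted p = 0.483 by limma) did not pass. In MM it was -0.05 (SE 0.09), from 104, 106, 113 and 100.5 FPKM in exercised and 104, 97.9, 118 and 121 FPKM in sedentary mice. The dehydrogenase Hadh and the reductase Decr1, which handles unsaturated chains, differed by -0.09 and -0.17 in VV and by -0.07 and -0.07 in MM. The electron transfer genes downstream gave -0.13 in VV and -0.09 in MM for Etfa, -0.06 and 0.13 for Etfb, and -0.16 and -0.04 for Etfdh (SE 0.11 to 0.13).

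None of the storage and control genes passed. The droplet coat Plin2 differed by 0.03 in VV and 0.03 in MM, Plin5 by -0.19 and -0.05, the lipase Pnpla2 by 0.07 and 0.09, and Lipe by -0.22 and -0.15 (SE 0.12 to 0.19 for these genes). Acacb and Mlycd, which make and remove malonyl-CoA, were within 0.06 of 0 in both genotypes. The receptor genes gave -0.03 in VV and 0.03 in MM for Ppara and 0.14 and 0.07 for Ppard (SE 0.17 and 0.19). The joined entry of the thioesterases Acot1 and Acot2, targets of PPARα in mice, averaged 18.7 ± 4.71 FPKM in exercised and 15.4 ± 4.39 FPKM in sedentary VV mice, and 19.2 ± 7.18 FPKM in exercised and 13.7 ± 1.09 FPKM in sedentary MM mice (SD, n = 4 each). Its log2 difference of 0.35 over both genotypes (SE 0.17, unadjusted p = 0.0570 by limma) did not pass, and these near-identical genes cannot be told apart in it. As a whole, 9 of the 35 entries lay above 0 in VV (median -0.08), against 26.4% of all entries, and 18 of 35 in MM (median 0.002), against 37.5%. With median-ratio scaling the counts were 18 of 35 in VV, against 49.6% of all entries, and 21 of 35 in MM, against 47.4%. Without the exercised MM mouse 2246-4 the count in MM was 8 of 35, against 35.8%.

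Between the genotypes 0 of the 35 entries passed, in exercised mice as in sedentary mice. In exercised mice 0 of 35 had an unadjusted p under 0.05 (limma), where 7.08% of all entries did and 0% passed after adjustment. In sedentary mice 2 of 35, Etfb and Ucp2, had such a p, where 4.47% of all entries did and 0.00951% passed. Neither genotype comparison had a member called under any alternative setting tried. White adipocyte markers stood lower in VV mice, 0 of 9 above 0 in exercised mice (median -0.48), against 31.3% of all entries. They summed to 559 to 708 FPKM in exercised VV and 577 to 1436 FPKM in exercised MM, where only mouse 2246-4 was above 889.7 FPKM. In sedentary mice 0 of 9 were above 0 as well (median -0.28), against 43.0% of all entries. Sums were 550.2 to 919 FPKM in sedentary VV against 697 to 935 FPKM in sedentary MM. None of the 9 was called or had an unadjusted p under 0.05 by limma, and the part of fat cells in these comparisons was not tested.

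In exercised mice the smallest p values belonged to Acadm, Acadl and Decr1, all lower in VV. The medium-chain dehydrogenase Acadm had 168, 195, 177 and 222 FPKM in exercised VV, against 191, 208, 275 and 229.6 FPKM in exercised MM mice, a log2 difference of -0.24 (SE 0.12, unadjusted p = 0.0519, adjusted p = 0.627 by limma). Acadl, its long-chain relative, had 164, 192, 174 and 200.3 FPKM in exercised VV, against 179, 196, 248 and 233 FPKM in exercised MM mice (-0.22, SE 0.11). Decr1 had 42.7, 48.0, 49.7 and 54.1 FPKM in exercised VV, against 48.5, 49.3, 68.3 and 65.3 FPKM in exercised MM mice (-0.24, SE 0.12). In these and all other members the groups overlapped (3.39% of all entries did not). For Acadm, Acadl and Decr1 the MM mice 2246-4 and 2297-3 held the highest values of the exercised mice. The sedentary mice had 248, 200.1, 204 and 194 FPKM of Acadm in VV, against 252, 220.4, 219 and 201 FPKM in MM.

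In sedentary mice Etfb, Ucp2 and Plin5 came first, all higher in VV. Etfb, the β subunit of the electron transfer flavoprotein, had 164, 169.9, 207 and 198 FPKM in sedentary VV, against 130.1, 146, 171 and 176 FPKM in sedentary MM mice, a log2 difference of 0.25 (SE 0.11, unadjusted p = 0.0321, adjusted p = 0.835 by limma). The values of Ucp2 given above made a difference of 0.46 (SE 0.20, unadjusted p = 0.0380 by limma). Plin5, which ties droplets to mitochondria, had 11.5, 12.2, 12.7 and 15.7 FPKM in sedentary VV, against 9.07, 10.2, 11.4 and 11.0 FPKM in sedentary MM mice. Its groups did not overlap, alone among the members (1.9% of all tested entries had this), at 0.31 (SE 0.19, unadjusted p = 0.114 by limma). After running Plin5 had 10.1, 16.4, 9.73 and 10.3 FPKM in VV, against 8.27, 10.9, 14.6 and 7.76 FPKM in MM mice, which overlapped.

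The subunits of the electron transfer flavoprotein, Etfa and Etfb, form a dimer, and the ratio of their RNA levels varied widely from mouse to mouse. Etfa had 125, 140.2, 132 and 167 FPKM in exercised VV and 190.0, 143, 146 and 140.2 FPKM in sedentary VV mice. It had 135, 147, 178 and 179 FPKM in exercised MM and 204, 167, 157 and 149 FPKM in sedentary MM mice. Etfb had 192, 193, 163 and 159 FPKM in exercised VV and 183, 173, 169.6 and 151 FPKM in exercised MM mice, with the sedentary values given above. The ratio of Etfb to Etfa ran from 0.638 in the sedentary MM mouse 2032-3 to 1.54 in the exercised VV mouse 2161-5.

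This spread went with the base composition of the transcripts. For each mouse a slope was fitted to the deviations of the genes outside the set on the GC content of their longest coding transcript, and it ranged from -0.33 log2 units per 10 points of GC in 2032-3 to 0.27 in 2161-5. The Etfa transcript has 45.0% GC and the Etfb transcript 57.1%. Over the 16 mice the log2 ratio of Etfb to Etfa followed the slope with Pearson's r = 0.985 and Spearman's rho = 0.982 (two-sided permutation test of 100000 draws, p = 1e-05 for each, the smallest they can give). Pearson's r was 0.982 without the 2 mice farthest from the median slope and 0.988 after centring on the group means. This was the only relation tested in this way, it was chosen after the values were seen, and both measures come from the same libraries. A pair of transcripts so unlike in GC would tend to follow the slope in any case. The p values therefore say nothing particular to ETF.

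**Figure D4:**
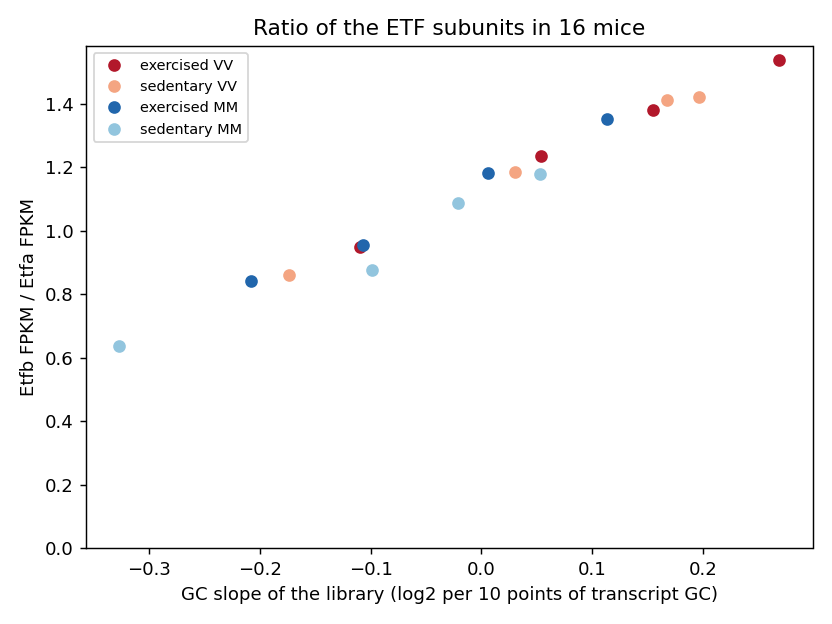
Ratio of Etfb to Etfa in FPKM (vertical, from 0) against the GC slope of the library (horizontal, log2 units per 10 points of transcript GC), 1 point per mouse in group colours. The points rise along a narrow band from 0.638 in mouse 2032-3 to 1.54 in mouse 2161-5, with mice of all groups spread along it.

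The same order ran through the whole set. Of the 33 entries with a transcript GC value, the 10 under 50% GC (Cd36, Lpl, Acsl1, Slc22a5, Acadl, Acadm, Hadhb, Decr1, Etfa and Etfdh) all had lower values in mice with a higher slope, by the sign of the correlation within groups. The 9 at 55% GC and above (Acads, Etfb, Acacb, Mlycd, Plin5, Pnpla2, Lipe, Ucp2 and Ppard) were all higher there, and of the 14 between these limits 12 were lower and 2, Crat and Acaa2, higher. The slope was on average higher in VV than in MM mice, 0.09 ± 0.16 in exercised VV against -0.05 ± 0.14 in exercised MM and 0.06 ± 0.17 in sedentary VV against -0.10 ± 0.16 in sedentary MM (SD, n = 4 each), and the groups overlapped. In the genotype comparisons 0 of the 10 members under 50% GC were above 0 (median -0.21 in exercised and -0.10 in sedentary mice). Among the 9 at 55% and above, 7 were above 0 in exercised mice (median 0.12) and 9 in sedentary mice (median 0.22). Of all tested entries 31.3% were above 0 in exercised mice (median -0.08) and 43.0% in sedentary mice (median -0.03). The slope was fitted on genes outside the set, so this order by GC is not particular to the set.

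**Figure D5:**
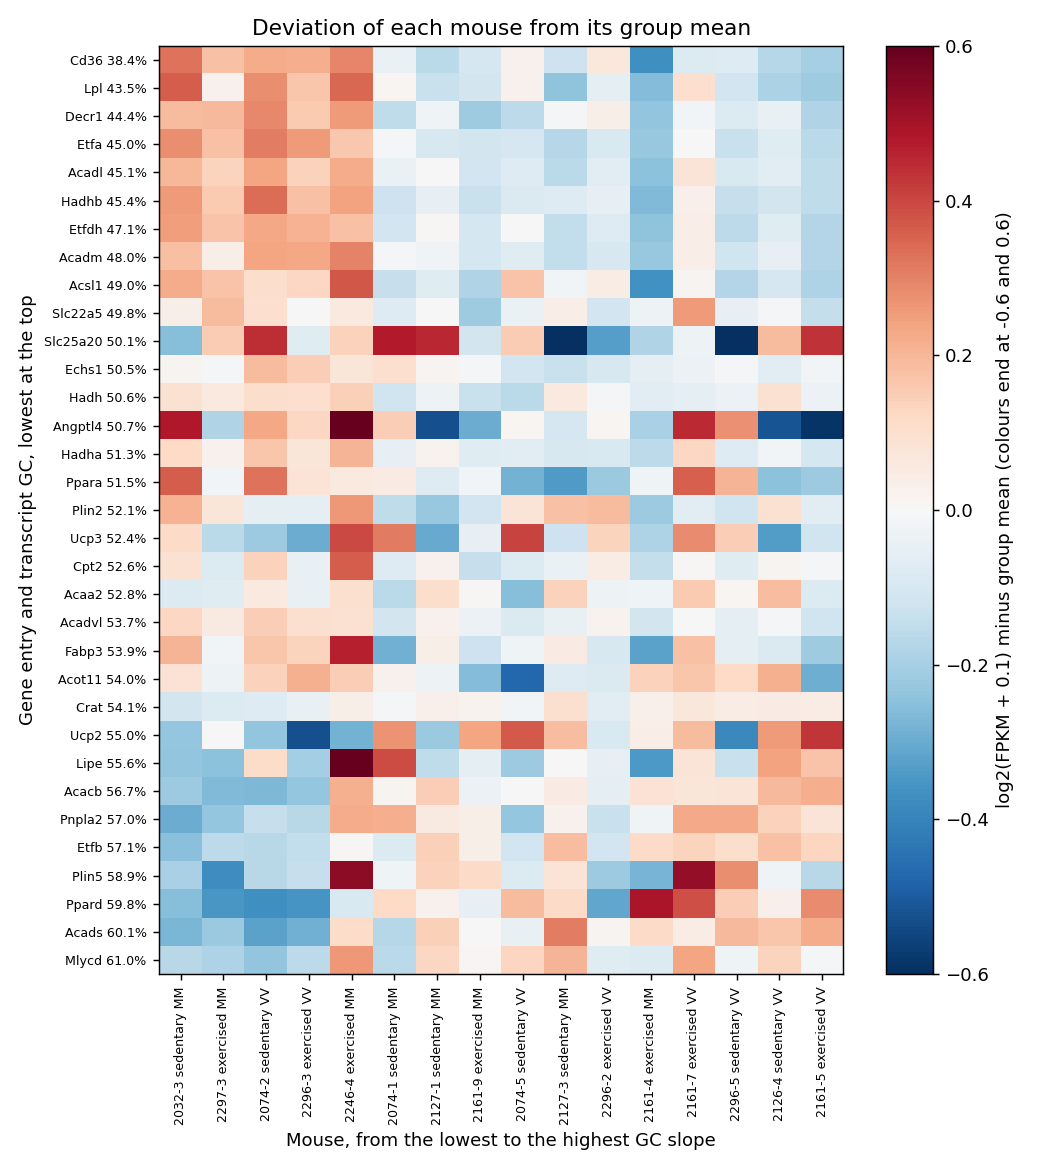
Deviation of each mouse from its group mean on the log2(FPKM + 0.1) scale (colour) for the 33 entries with a GC value, from the lowest transcript GC at the top to the highest at the bottom, and mice from the lowest GC slope on the left to the highest on the right. Red fills the upper left and, more faintly, the lower right, and single genes such as Slc25a20, Angptl4 and Ucp2 break the pattern.

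With the dependence on GC taken off in each mouse, an alternative chosen after seeing the data, the genotype differences of these genes mostly shrank. The slope differed on average between the genotypes, so this correction takes off differences ordered by GC whatever their origin. Acadm in exercised VV against MM mice was then at -0.13 (unadjusted p = 0.143 by limma), Acadl at -0.09 and Decr1 at -0.10. Etfb in sedentary VV against MM mice was at 0.14 (unadjusted p = 0.0249, adjusted p = 0.993 by limma). In the same comparison Plin5 was at 0.17 and Ucp2 at 0.41 (unadjusted p = 0.0396 by limma). Some genotype differences grew, such as that of Slc25a20 in exercised mice, from 0.12 to 0.21. Over the 33 entries the median absolute log2 difference between VV and MM was 0.0761 in exercised and 0.0498 in sedentary mice, against 0.158 and 0.123 without the correction. Among the exercise effects, Acot11 was then at -0.49 in VV and -0.84 in MM (adjusted p = 0.0120 by limma for MM) and Angptl4 at 0.84 and 1.21 (adjusted p = 0.0250 by limma for MM). Some differences close to 0 changed sign, such as those of Cd36 (0.03) and Acsl1 (0.05) in VV. Ucp2 in MM, at 0.75, passed in this setting (adjusted p = 0.0424 by limma), as it did when mice were weighted by quality (0.0400) or when MM mice were fitted without VV mice (0.0429). What sets the slope of a library was not tested.

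Single mice also stood apart across the set. In the exercised MM mouse 2246-4, 33 of the 35 entries lay above the group mean, with a median deviation of 0.21 log2 units over the members and 0.03 over all entries. The exercised VV mouse 2161-7 had 29 of 35 above its group mean (median 0.08), and the exercised MM mice 2161-4 and 2161-9 had 7 of 35 each. The spread within groups was that of genes at large, with a median SD of 0.197 log2 units over the members and 0.190 over all entries. It was smallest for Crat (0.0675) and the joined Cpt1b entry (0.0691) and largest for Slc25a20 (0.429) and Angptl4 (0.420).

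Other genes of lipid use gave the setting for these values. Of 25 tested regulators of the PPAR, ERR and AMPK pathways, 1 passed higher and 0 lower in VV, and 2 passed higher and 1 lower in MM. Of all entries 0.276% passed in VV, and 1.08% passed higher and 0.143% lower in MM. Ppargc1a, the coactivator PGC-1α, had 41.2, 91.0, 39.3 and 43.1 FPKM in exercised VV, against 10.4, 13.3, 8.03 and 10.4 FPKM in sedentary VV mice. It had 65.2, 35.9, 75.8 and 48.8 FPKM in exercised MM, against 17.4, 9.19, 9.58 and 11.3 FPKM in sedentary MM mice. Every exercised mouse lay above every sedentary mouse, with log2 differences of 2.27 in VV (adjusted p = 0.00206 by limma) and 2.23 in MM (adjusted p = 0.000661 by limma). The AMPK subunit gene Prkag2 had 15.4, 9.77, 18.2 and 13.1 FPKM in exercised MM, against 7.70, 6.11, 5.75 and 6.25 FPKM in sedentary MM mice, with no overlap (1.09, adjusted p = 0.00845 by limma). The muscle AMPK subunit Prkag3 was lower in MM at -0.56 (adjusted p = 0.0467 by limma, 0.0308 to 0.157 with single mice left out, where it was kept in 5 of 16, and lost with the title number as a block and under both other scalings). In VV these were 0.93 and -0.52 (adjusted p = 0.0692 and 0.134 by limma). Esrra, the estrogen-related receptor α, did not pass, at -0.09 in VV and -0.04 in MM.

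Among 8 tested genes of ketone use and PPAR targets, 2 passed higher and 1 lower over both genotypes, and 0 in either genotype by itself (3 in VV and 3 in MM at an unadjusted p under 0.05, limma). Of all entries 1.98% passed higher and 1.16% lower over both genotypes. At that unadjusted p stood 10.1% of all entries in VV and 10.7% in MM. Pdk4, which holds back glucose oxidation, had 754, 992, 993 and 1033 FPKM in exercised VV, against 649.7, 797, 418 and 772 FPKM in sedentary VV mice. In MM it had 703, 884, 1099 and 988 FPKM in exercised mice, against 787, 629, 445 and 463 FPKM in sedentary mice. Both pairs overlapped, and the difference over both genotypes was 0.61 (adjusted p = 0.0366 by limma). Leaving out single mice gave adjusted p values of 0.0185 to 0.0777 by limma, and the call was kept when 2161-5, 2074-5, 2296-5, 2161-4 or 2032-3 was the mouse left out. The lactate and ketone transporter Slc16a1 was higher at 0.36 and the coenzyme A carrier Slc25a42 lower at -0.30 (adjusted p = 0.0279 and 0.0291 by limma, up to 0.0627 and 0.0653 with single mice left out). Both calls were lost with the title number as a block (0.0501 and 0.0915), as was that of Pdk4 (0.0624, and 0.0524 without a filter on low values), and Slc25a42 also after median-ratio (0.113) and quantile scaling (0.0839, all adjusted p by limma).

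Triglyceride synthesis had 1 of 13 tested genes higher in MM, 0 in VV (4 at an unadjusted p under 0.05, limma) and 2 higher over both. Of all entries 1.08% passed higher in MM, 0.276% passed in VV, and 1.98% passed higher and 1.16% lower over both. At that unadjusted p stood 10.1% of all entries in VV and 10.7% in MM. Agpat9, a glycerol phosphate acyltransferase, had 3.46, 4.11, 3.77 and 3.06 FPKM in exercised VV, against 2.83, 2.22, 2.14 and 2.69 FPKM in sedentary VV mice. In MM it had 3.53, 4.10, 6.38 and 4.31 FPKM in exercised mice, against 2.57, 2.81, 2.54 and 2.34 FPKM in sedentary mice. Neither pair overlapped, and the difference was 0.53 in VV (adjusted p = 0.253 by limma) and 0.78 in MM (adjusted p = 0.0216 by limma, 0.0135 to 0.0680 with single mice left out and lost without the sedentary MM mice 2127-1 or 2127-3, or at 0.0601 when MM mice were fitted without VV mice). Lpin1, a phosphatidate phosphatase, was higher over both genotypes at 0.32 (adjusted p = 0.0210 by limma, lost at 0.0514 without the exercised VV mouse 2161-7 and at 0.0679 with the title number as a block). Of 19 further genes of uptake and activation, 1 passed over both, the synthetase Acsl4 at -0.34 (adjusted p = 0.0299 by limma, 0.0123 to 0.0689 with single mice left out and 0.123 with the title number as a block), and 0 passed in either genotype (4 in VV and 2 in MM at an unadjusted p under 0.05). The lists of other mitochondrial oxidation (14 tested), peroxisomal oxidation (17), other lipid droplet genes (15) and fatty acid synthesis (15) had 0 called by limma in all 6 comparisons. At an unadjusted p under 0.05 over both genotypes stood 3, 5, 2 and 7 genes of these lists, where 18.7% of all entries did. Cpt1a, the liver form of the first shuttle enzyme, had the smallest p of the mitochondrial list in MM, with 6.04, 5.83, 6.03 and 6.34 FPKM in exercised MM, against 4.36, 3.86, 4.32 and 5.82 FPKM in sedentary MM mice (0.41, unadjusted p = 0.00717, adjusted p = 0.213 by limma). In VV it had 5.18, 4.48, 5.28 and 4.42 FPKM in exercised mice, against 4.66, 5.35, 6.04 and 4.04 FPKM in sedentary mice (-0.04). These effects differed by -0.45 (SE 0.19, unadjusted p = 0.0295 by limma), which did not pass after adjustment. Exercised VV and MM mice differed by -0.32 (unadjusted p = 0.0278, adjusted p = 0.627 by limma).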

How the data were processed

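The authors deposited FPKM values per gene for 16 mice, scaled to transcript length and library size, from stranded poly(A)+ libraries of whole quadriceps. Tools named by the submitters' notes are TopHat, StringTie, SAMtools, FastQC and Cuffdiff 2.2.1, with build mm10, and neither their roles nor the annotation are given in the sources used here. No read counts entered, and error is the spread between mice. FPKM is relative to all mapped fragments, so a shift in the most abundant genes moves all others, and overlapping or near-identical genes (271 tested entries are joined) are uncertain.

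Groups came from the labels, and each mouse is 1 replicate. The table held 18872 entries with values, 7 of them with some missing, and 1 more entry without any value. Entries with a mean of at least 1 FPKM, 10519, were fitted as log2(FPKM + 0.1), which understates changes of low genes, with limma 3.58.1 in R 4.3.3 (4 group means, eBayes with trend and robust settings). Two-sided p values were adjusted over all tested entries (Benjamini-Hochberg), with 0.05 as the threshold. The procedure was tested on simulated data. Summaries and figures used Python 3.11.15 and matplotlib 3.10.9. The alternatives were another pseudocount, other filters, scalings and variance settings, the groups compared alone, the title number as a block, single mice left out and, added after seeing the data, a lowess correction for GC in each mouse.

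The members, lists and tests were chosen with earlier results of these data known. Named in full were members that passed and the 3 with the smallest p in each comparison, and from other lists the genes that passed, at most 4 a list, with Pdk4, Ppargc1a, Cpt1a, Esrra, Fabp4 and Adipoq in any case, and a gene of that rule is not reported here. Any further gene was chosen for its values. GC content is that of the longest coding transcript in GENCODE on GRCm38, and coordinates and promoters are RefSeq's on GRCm38.p6, the assembly behind mm10.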

Additional observations from a re-analysis of the deposited data

Results flagged for a closer look

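In 140 groups of 4 mice (35 entries in 4 groups), a single mouse was flagged as apart from the other 3 in 10. Chance gives about 1 in 20, so this number is not far from chance. The flag is relative to the range of the 4 mice, so a small gap can raise it. The exercised MM mouse 2246-4 was high in Angptl4 (16.2 FPKM, others 8.20 to 8.91), in the shuttle enzyme Cpt2 (46.2 FPKM, others 32.5 to 33.9) and in the receptor Ppara (6.67 FPKM, others 6.28 to 6.32). The gap in Ppara was small, since sedentary MM mice ran from 4.92 to 8.08 FPKM. In the same group mouse 2297-3 was low in Crat (114 FPKM, others 122 to 123).

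The sedentary VV mouse 2074-2 was high in Acadl (231 FPKM, others 184 to 188), Hadhb (339 FPKM, others 245 to 253) and Etfa (190.0 FPKM, others 140.2 to 146), transcripts of under 50% GC, and its library had the lowest GC slope of the group at -0.17. Mouse 2074-5 of that group was low in Acot11 (1.91 FPKM, others 2.93 to 3.13).

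Among exercised VV mice, 2296-2 was high in Plin2 (22.3 FPKM, others 18.6 to 18.8) and 2161-7 in Plin5 (16.4 FPKM, others 9.73 to 10.3). The causes were not tested.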

How the results depend on the processing

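The number of members called in MM after exercise was 2, and 1 without a filter on low values, with a minimum of 5 FPKM and with the title number as a block, and 3 with sample quality weights and after the GC correction. It was 1 to 2 with single mice left out. Over both genotypes it was 2, 1 with a minimum of 5 FPKM and 2 to 3 with single mice left out. In VV, in the difference of the effects and in both genotype comparisons it stayed at 0 under every alternative run. Differences near 0 changed sign under some settings. So did some larger ones, such as that of Mlycd between sedentary VV and MM mice (0.16, and -0.03 after the GC correction). Acot11 and Angptl4 kept their direction after exercise throughout, and Acot11 in MM and both calls over the 2 genotypes passed wherever the gene was tested.

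Over all entries, 129 were called in MM, and 235 with sample quality weights, 72 with the block, 206 after the GC correction (116 over the same 9208 entries without it) and 69 to 135 with single mice left out. For VV, 29 were called, and 53 after median-ratio and 48 after quantile scaling, 72 after the GC correction, 5 when VV mice were fitted without MM mice and 17 to 43 with single mice left out. Over both genotypes there were 330, 573 with weights, 153 with the block, 539 after the GC correction and 225 to 365 with single mice left out. The single entry called between sedentary genotypes gave 0 with a pseudocount of 1, without a filter, with a minimum of 5 FPKM, after both scalings, with a plain eBayes step, for the groups alone, after the GC correction and over the same entries without it, and 0 to 2 with single mice left out. In exercised mice and in the difference of the effects the count was 0, and 0 to 1 with single mice left out. Why these counts move was not tested.

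Within the title numbers that hold both genotypes, differences of means over few mice gave a median over the members of 0.05 for exercised VV against MM (2161) and 0.08 for sedentary VV against MM (2074). For 2161 these were 2 VV and 2 MM mice, and for 2074 they were 2 VV mice and 1 MM mouse, 2074-1. Of the 35 entries, 27 and 20 had the direction of the fit over all mice, which includes these mice. Above 0 were 21 within 2161, against 13 in that fit (median -0.05), and 28 within 2074, against 19 (median 0.02). Shares over all entries within the title numbers are not given, so these counts say nothing particular to the members. The sources used here do not explain the title number, and beyond it the labels give no number that pairs single mice across groups. The sum of Acot1 and Acot2 was not run, since they share an entry already. Depth limits low genes most, and Acot11 at about 2 FPKM is the lowest member called.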

Other observations

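Genes of fatty acid synthesis, which build rather than burn fatty acids, leaned to lower values after running although 0 of 15 tested passed in any comparison (4 in MM and 0 in VV at an unadjusted p under 0.05 by limma). At that unadjusted p stood 10.7% of all entries in MM and 10.1% in VV. In VV 0 of 15 lay above 0 (median log2 difference -0.29), against 26.4% of all entries, and in MM 2 of 15 (median -0.14), against 37.5%. Adipoq and Fabp4, markers of white fat, had differences of -0.31 and -0.10 in VV and of -0.25 and 0.04 in MM, and did not pass. The part of fat in the samples in these values was not tested.

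Of the 7 fibro-adipogenic markers, 7 lay above 0 after running in MM (median 0.42, 1 called) and 5 in VV (median 0.01, 0 called). Of all entries 37.5% in MM and 26.4% in VV lay above 0, and 1.23% and 0.276% were called. For the difference of the effects 0 of 7 were called and 0 had an unadjusted p under 0.05 by limma. The entry called was Ly6a joined with Ly6c1, at 0.32 in MM (adjusted p = 0.0478 by limma) and 0.13 in VV, and it also passed over both genotypes (0.22, adjusted p = 0.0299 by limma). The call in MM was near the threshold. Levels of the 7 markers summed to 1075, 1193, 807 and 1166 FPKM in exercised MM, against 747, 738, 646 and 873 FPKM in sedentary MM mice. In VV they summed to 1185, 778, 753 and 897 FPKM in exercised mice, against 801, 933, 1124 and 638 FPKM in sedentary mice. Both pairs of groups overlapped. Slow fibre markers summed to 513 FPKM in the exercised VV mouse 2296-2 and 549 FPKM in the sedentary VV mouse 2074-5, while the other 14 mice had at least 806 FPKM. In VV against MM mice 1 of 7 tested lay above 0 in exercised mice (median -0.31), against 31.3% of all entries. In sedentary mice 2 of 7 did (median -0.23), against 43.0%. In both 0 were called and 0 had an unadjusted p under 0.05 by limma. The part of slow fibres in the genotype comparisons was not tested. Of 10 endothelial markers, 2 passed over both genotypes, where 3.14% of all entries did. They were the adhesion molecule Pecam1, higher at 0.22, and the cadherin Cdh5, lower at -0.24 (adjusted p = 0.0395 and 0.0113 by limma).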
